A study of Mus musculus with 6 samples.

Results

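The mitochondrial ribosomal protein genes of the retina were compared between Elovl2 C234W and wild-type mice. Members were chosen by name: gene models whose symbol begins with Mrpl or Mrps followed by a number and whose annotation is protein-coding. The rule found 78 of 25124 gene models, and all 78 were among the 14685 genes with enough counts to test. Whole retinas were taken from C57BL/6J mice aged 4 months, 3 libraries of genotype Elovl2(C234W) and 3 wild-type libraries, and polyadenylated RNA was sequenced. The C234W animals carry a cysteine-to-tryptophan substitution in Elovl2, an enzyme that extends polyunsaturated fatty acids to the very long chains found in photoreceptor membranes, and the sources used here do not give zygosity, sex or how many animals a library holds. Columns named WT1A, WT2A and WT2B were taken as wild type. Columns FS3A, FS3B and FS5A were taken as C234W by elimination, since that prefix is not spelled out in the labels, and the direction of every difference rests on this.

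Mitochondria carry their own ribosome, which translates the few respiratory chain subunits encoded by mitochondrial DNA. Its RNA comes from that DNA, but every one of its proteins is encoded in the nucleus, made in the cytosol and imported. Some of these proteins have homologues in bacteria and others were added in the mitochondrial lineage. Photoreceptors pack mitochondria densely into their inner segments and depend on them to power the dark current.

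Libraries FS3A, FS3B and FS5A held 17179728, 19298554 and 15804488 counts in genes, and WT1A, WT2A and WT2B held 17343409, 18710254 and 14184022. Names such as WT2A and WT2B, or FS3A and FS3B, have a number in common, and nothing says that the libraries came from separate animals. The p-values therefore cover no more than the spread among these libraries, which may be technical. Elovl2 itself averaged 96.1 ± 17.9 CPM in C234W and 139 ± 3.01 CPM in WT (CPM, counts-per-million of the TMM-scaled library; SD, n = 3 each), a log2 fold change of -0.53 that did not pass (edgeR quasi-likelihood test, adjusted p = 0.101). Summed over 16 markers of retinal cell types, none of them at 0, levels ran from 62770 to 81230 CPM in C234W and from 92040 to 140900 CPM in WT. The 10 pigment epithelium markers summed to between 109.4 and 164.3 CPM in C234W and between 77.1 and 770 CPM in WT, with the highest value in WT1A, and 10 blood and vessel markers to between 99.88 and 130.2 CPM in C234W and between 138.3 and 261.4 CPM in WT. Within that last list the 5 haemoglobin genes had log2 fold changes of -1.34 to -1.06 without overlap, while the 4 vessel markers Pecam1, Cdh5, Cldn5 and Tek had values of 0.68, 0.68, 0.34 and 0.25, and 0 of these 9 passed by edgeR. DESeq2 called 5 of the 10 lower (against 7.24% of all genes) and 1 higher (against 4.71%). Hba-a1 and Hba-a2 have nearly the same coordinates and levels, as do Hbb-b1 and Hbb-bs. The genes within each pair are therefore not separate measurements, and the sum can hold the same tags more than once. Hbb-bt has other coordinates and a lower level, with means of 2.12 CPM in C234W and 5.37 CPM in WT. Markers of lens, muscle and oligodendrocytes summed to between 114.8 and 189.9 CPM in C234W and between 141.7 and 182.9 CPM in WT, with 6 of 10 abundant enough to test. The part of these markers in the results below was not tested, and in whole tissue fewer cells of a type and less RNA per cell cannot be told apart.

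Most mitoribosomal transcripts were measured lower in C234W retinas, by modest amounts, and few passed the test. Of 78 genes, 2 fell, 0 rose and 76 did not pass at a Benjamini-Hochberg adjusted p under 0.05 over all genes (edgeR quasi-likelihood test), which is 2.56% lower, against 1.28% of all tested genes called lower, 0.184% called higher and 1.46% in either direction. The 2 were Mrps18a and Mrps24. The log2 fold change was negative for 63 of 78 (80.8%), against 48% of all tested genes, and the median over members was -0.30, against 0.023 over all genes. Groups did not overlap, with C234W lower, for 38 members (48.7%), against 16.4% of all genes, and with C234W higher for 2 members (2.56%), against 12.6% of all genes. At an unadjusted p under 0.05, 29 members were lower (37.2%, against 13.5% of all genes) and 0 were higher (against 11.9%). These counts depend on the scaling: with libraries scaled to their total counts, 15 members were lower and 3 higher, and 50 of 78 had a negative log2 fold change. That scaling moved the median log2 fold change over all genes to 0.205. DESeq2 called 17 members lower (21.8%, against 7.24% of all genes) and 0 higher (against 4.71%). On simulated data DESeq2 made more false calls than edgeR (24 of 162 calls against 6 of 141). Those data were drawn with the dispersion that edgeR fitted and without a trend on transcript length. They therefore cannot rank the tools on the real libraries. Without WT1A edgeR called 20 members lower, when over all genes it called 1407 lower and 1368 higher. Without WT2A, WT2B, FS3A or FS3B it called 0 genes, and without FS5A 4 genes and 0 members.

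Promoters are shown for 4 members with small p. The regulators NRF1, the GABP factor of the ETS family and YY1 are known to bind upstream of many nuclear genes for mitochondrial proteins. The RefSeq promoter table (GRCm38.p6, the assembly also named mm10) had entries for 69 of the 78 genes, in 75 windows. Each window is the 250 bases before the gene start, read 5′ to 3′ on the strand of the gene, with motif matches in capitals. The ETS motif was searched as CCGGAAG, and the motifs of NRF1 and YY1 by their usual consensus, all on both strands. The 4 windows printed are those of the members with the smallest p that held a match. Between them by p, Mrps24 and Mrpl11 had windows without a match, and Mrps34 had no entry.
Mrps18a, chr17:46110754-46111003, plus strand, ETS match: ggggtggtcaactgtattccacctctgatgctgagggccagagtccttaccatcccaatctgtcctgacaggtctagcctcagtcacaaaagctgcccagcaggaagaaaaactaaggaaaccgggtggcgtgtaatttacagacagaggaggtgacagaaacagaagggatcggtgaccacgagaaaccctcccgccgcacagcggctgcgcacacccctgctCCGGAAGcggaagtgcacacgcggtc
Mrpl30, chr1:37890227-37890476, plus strand, NRF1 match: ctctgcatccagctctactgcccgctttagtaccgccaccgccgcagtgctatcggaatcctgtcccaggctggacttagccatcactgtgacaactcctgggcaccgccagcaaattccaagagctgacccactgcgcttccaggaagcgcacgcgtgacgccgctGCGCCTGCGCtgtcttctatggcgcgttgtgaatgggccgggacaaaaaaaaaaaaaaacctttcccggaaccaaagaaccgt
Mrpl18, chr17:12916092-12916341, minus strand, ETS match: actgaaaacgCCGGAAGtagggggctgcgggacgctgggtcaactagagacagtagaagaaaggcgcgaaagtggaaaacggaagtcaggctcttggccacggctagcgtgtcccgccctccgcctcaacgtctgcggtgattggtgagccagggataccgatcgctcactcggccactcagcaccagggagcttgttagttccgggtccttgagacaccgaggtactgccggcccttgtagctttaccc
Mrpl12, chr11:120484387-120484636, plus strand, NRF1 match: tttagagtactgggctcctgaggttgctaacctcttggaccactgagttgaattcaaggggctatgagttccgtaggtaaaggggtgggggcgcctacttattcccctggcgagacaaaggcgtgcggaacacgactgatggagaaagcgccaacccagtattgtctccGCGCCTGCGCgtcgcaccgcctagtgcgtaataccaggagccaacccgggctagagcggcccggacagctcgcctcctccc
The matches begin 26 bases before the gene start in Mrps18a, 83 in Mrpl30, 240 in Mrpl18 and 81 in Mrpl12. Matches to the ETS letters were found in 18 of 75 member windows (24%), against 6.91% of all 32851 windows and 12.1% of windows of the other genes tested. NRF1 letters were found in 10 member windows (13.3%), against 3.74% of all windows and 7.3% of those of the other genes tested, and YY1 letters in 1 (1.33%, against 0.207% of all). Members with an NRF1 match were at -0.44 in the median of the log2 fold change (n = 10) and those without were at -0.29 (n = 59), while members with an ETS match were at -0.34 (n = 18) and those without at -0.29 (n = 51). With a trend on transcript length removed from each library, these medians were -0.26 with and -0.042 without an NRF1 match, and -0.09 with and -0.11 without an ETS match, so that the ETS order turned. These are descriptions of letters in a window, with no test of the split.

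In the large subunit, Mrps18a, which carries a small-subunit symbol but belongs to the large subunit in ribosome structures, was the member with the smallest p. Mrps18a (NM_026768, mm10 chromosome 17, 46111004 to 46128908, plus strand) was measured at 23.4, 22.6 and 21.9 CPM in C234W and at 38.0, 46.1 and 40.9 CPM in WT. Every C234W library was below every WT library. Its log2 fold change was -0.88 (SE 0.156, adjusted p = 0.0484). That call rests on the choice of libraries and of scaling: across 17 alternatives its adjusted p ran from 0.000225 to 0.379 and passed in 6, and it did not pass when WT2A, WT2B, FS3A, FS3B or FS5A was left out (adjusted p = 0.218, 0.237, 0.174, 0.0868 and 0.0911). Mrps30, the other large-subunit protein with a small-subunit symbol, was measured at 17.7, 20.1 and 21.2 CPM in C234W and at 25.5, 36.3 and 33.1 CPM in WT, without overlap, and its log2 fold change of -0.69 (SE 0.187) did not pass (adjusted p = 0.0779).

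Homologues of bacterial large-subunit proteins made up 30 of the members. None passed by edgeR, and DESeq2 called 7 lower (23.3%, against 7.24% of all genes). At an unadjusted p under 0.05, 10 were lower (33.3%, against 13.5% of all genes), and the median log2 fold change was -0.28. Mrpl12, the protein of the ribosomal stalk that recruits translation factors, was measured at 41.9, 29.5 and 36.5 CPM in C234W and at 57.1, 58.0 and 66.7 CPM in WT. The groups did not overlap, and the log2 fold change of -0.75 (SE 0.176) had an adjusted p of 0.0595. Mrpl11, at the base of the same stalk, was measured at 40.8, 35.0 and 41.4 CPM in C234W and at 57.3, 64.9 and 65.3 CPM in WT. Its log2 fold change was -0.68 (SE 0.152, adjusted p = 0.0567), again without overlap. Mrpl30 was measured at 32.8, 27.0 and 28.05 CPM in C234W and at 43.4, 52.75 and 58.4 CPM in WT, and Mrpl18, a protein of the central protuberance, at 32.0, 30.3 and 31.9 CPM in C234W and at 44.2, 52.2 and 56.2 CPM in WT. Both were separated by group, with log2 fold changes of -0.81 and -0.70 (adjusted p = 0.0543 and 0.0571). Mrpl13 and Mrpl20 followed at log2 fold changes of -0.62 and -0.56 (adjusted p = 0.0654 and 0.0703), with means of 25.4 ± 0.657 CPM in C234W and 38.9 ± 3.45 CPM in WT for Mrpl13, and of 38.6 ± 3.11 CPM in C234W and 56.8 ± 1.55 CPM in WT for Mrpl20 (SD, n = 3 each).

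The large-subunit proteins classed as mitochondria-specific numbered 21, counting Mrps18a and Mrps30. Of these 1 fell (4.76%, against 1.28% of all genes), 0 rose and 20 did not pass. At an unadjusted p under 0.05, 8 were lower (38.1%, against 13.5% of all genes), and the median log2 fold change was -0.32. Mrpl44, which has an RNase III-like fold, was measured at 14.2, 18.8 and 15.7 CPM in C234W and at 23.4, 27.5 and 28.8 CPM in WT. The groups did not overlap, and the log2 fold change was -0.71 (SE 0.186, adjusted p = 0.0723). Mrpl49, the member with the most counts, was measured at 80.1, 79.1 and 85.8 CPM in C234W and at 127, 92.3 and 94.6 CPM in WT, with the highest value in WT1A and a log2 fold change of -0.36 (adjusted p = 0.213). Mrpl58, a peptidyl-tRNA hydrolase that frees stalled mitochondrial ribosomes, had overlapping groups of 33.9, 36.0 and 28.2 CPM in C234W and 43.1, 40.5 and 33.0 CPM in WT (log2 fold change -0.25, adjusted p = 0.395). Mrpl54 varied widely by library, at 43.3, 34.05 and 25.7 CPM in C234W and 65.0, 34.5 and 29.3 CPM in WT, and WT1A alone set its direction: its log2 fold change of -0.32 (adjusted p = 0.549) became 0.11 (adjusted p = 0.762) without WT1A.

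**Figure D1:**
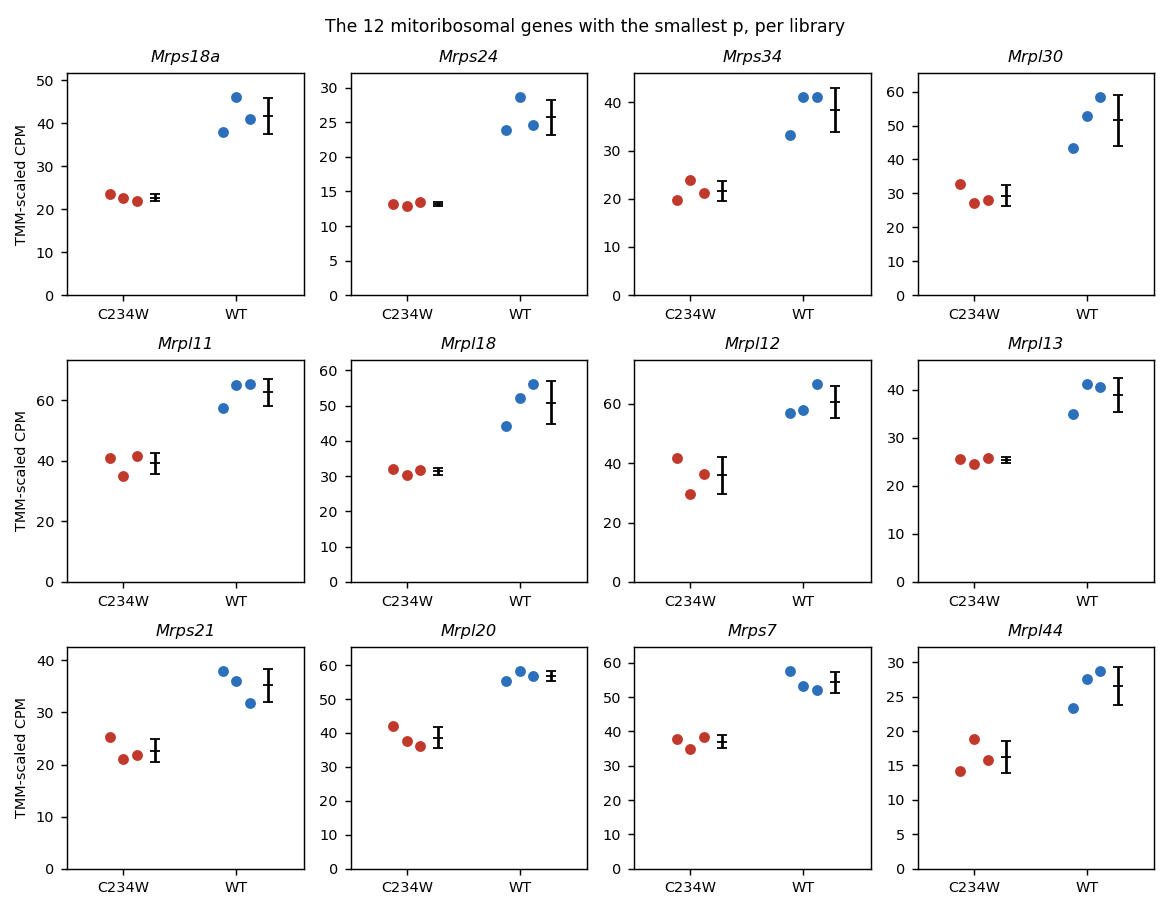
TMM-scaled CPM in each library (points) for the 12 mitoribosomal genes with the smallest p, C234W left and WT right, with the mean and SD over 3 libraries beside the points; each axis starts at 0. In all 12 panels the C234W points lie below the WT points, as for Mrps18a at 21.9 to 23.4 against 38.0 to 46.1.

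In the small subunit, Mrps24 was the member that fell. It is the homologue of a bacterial protein at the channel through which messenger RNA enters. Mrps24 (NM_026080, mm10 chromosome 11, 5703982 to 5707701, minus strand) was measured at 13.2, 12.9 and 13.5 CPM in C234W and at 23.9, 28.7 and 24.6 CPM in WT, the C234W libraries close together and all below WT. Its log2 fold change was -0.96 (SE 0.172, adjusted p = 0.0484). As for Mrps18a, the adjusted p passed in 6 of 17 alternatives, ran from 0.000193 to 0.379, and did not pass without WT2A, WT2B, FS3A, FS3B or FS5A (adjusted p = 0.218, 0.237, 0.174, 0.0868 and 0.0911). The GENCODE annotation (release M21, same assembly) gives Mrps24 226 exonic bases in common with Urgcp on the same strand, so tags there could belong to either gene.

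Of 16 small-subunit homologues of bacterial proteins, Mrps24 fell (6.25%, against 1.28% of all genes), 0 rose and 15 did not pass. At an unadjusted p under 0.05, 7 were lower (43.8%, against 13.5% of all genes), and the median log2 fold change was -0.32. Mrps7, a protein of the head of the subunit, was measured at 37.8, 35.0 and 38.3 CPM in C234W and at 57.6, 53.3 and 51.9 CPM in WT. The groups did not overlap, and its log2 fold change was -0.55 (SE 0.144), which did not pass (adjusted p = 0.0707). Mrps21 was measured at 25.2, 21.0 and 21.8 CPM in C234W and at 38.0, 36.0 and 31.8 CPM in WT, also without overlap (log2 fold change -0.64, adjusted p = 0.0692). Mrps12, whose bacterial homologue lies at the decoding centre and binds streptomycin, had overlapping groups of 13.2, 13.04 and 10.49 CPM in C234W and 18.7, 15.2 and 12.7 CPM in WT (log2 fold change -0.34, adjusted p = 0.349). Mrps6 had a positive log2 fold change, 0.29 (adjusted p = 0.586), from 19.2, 17.4 and 8.78 CPM in C234W and 15.4, 10.55 and 11.2 CPM in WT. FS5A was the lowest of the 6 libraries for Mrps6 and FS3A and FS3B the highest; the gene also has 305 exonic bases in common with Slc5a3 and Gm49711 on its strand.

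The 10 small-subunit proteins classed as mitochondria-specific were at -0.49 in the median of the log2 fold change. Of these, 0 passed by edgeR and DESeq2 called 2 lower (20%, against 7.24% of all genes). At an unadjusted p under 0.05, 4 were lower (40%, against 13.5% of all genes). Mrps34, a subunit whose loss destabilises the small subunit in mice, was measured at 19.8, 23.9 and 21.2 CPM in C234W and at 33.1, 41.1 and 41.1 CPM in WT. The groups did not overlap, and the log2 fold change of -0.83 (SE 0.170) had an adjusted p of 0.0518. Mrps34 has 763 exonic bases in common with Nme3 on the same strand, which limits this value. Mrps22 was measured higher in C234W, at 17.5, 14.2 and 16.2 CPM in C234W and 13.5, 11.8 and 10.8 CPM in WT, without overlap, and its log2 fold change of 0.40 (SE 0.197) did not pass (adjusted p = 0.231). The 3 genes of the Mrps18 family, relatives of a single bacterial protein and spread over both subunits, had log2 fold changes of -0.88 for Mrps18a, -0.47 for Mrps18b (adjusted p = 0.202) and -0.62 for Mrps18c (adjusted p = 0.0812). Mrps18b was measured at 7.34, 9.58 and 7.50 CPM in C234W and at 11.6, 11.1 and 11.2 CPM in WT, and Mrps18c at 17.96, 14.2 and 17.4 CPM in C234W and at 25.2, 26.2 and 24.7 CPM in WT. In none of the 3 did the groups overlap. Mrps18c has 250 exonic bases in common with Gm43511 on the same strand, which limits its value.

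Mrps36 is named as a ribosomal protein, but its product is now known as a subunit of the oxoglutarate dehydrogenase complex of the citric acid cycle. It was measured at 3.23, 3.70 and 3.11 CPM in C234W and at 6.11, 4.47 and 3.83 CPM in WT, and its log2 fold change of -0.52 (SE 0.294) did not pass (adjusted p = 0.294). The annotation names 3 pseudogenes of Mrps36, and tags that map to several places were not counted, which leaves its level uncertain.

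Besides Mrps22 and Mrps6, the members with the most positive log2 fold changes were Mrpl35, Mrpl23 and Mrpl19. Mrpl35 was measured at 8.21, 10.53 and 7.44 CPM in C234W and at 6.77, 5.54 and 5.74 CPM in WT, without overlap, and its log2 fold change, 0.54 with an SE of 0.243, did not pass (adjusted p = 0.203). Mrpl19 overlapped between groups, at 13.3, 16.5 and 14.0 CPM in C234W and 13.5, 11.4 and 10.2 CPM in WT. Mrpl23, at the exit of the nascent chain in bacterial ribosomes, was near the floor of detection with 27, 14 and 24 rounded counts in C234W and 20, 9 and 10 in WT, and its log2 fold change of 0.50 had an SE of 0.524. The annotation names 1 pseudogene of Mrpl23, and tags that map to several places were not counted, which leaves its level uncertain. With Mrps22, Mrpl35 made up the 2 members whose groups were separated with C234W higher.

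**Figure D2:**
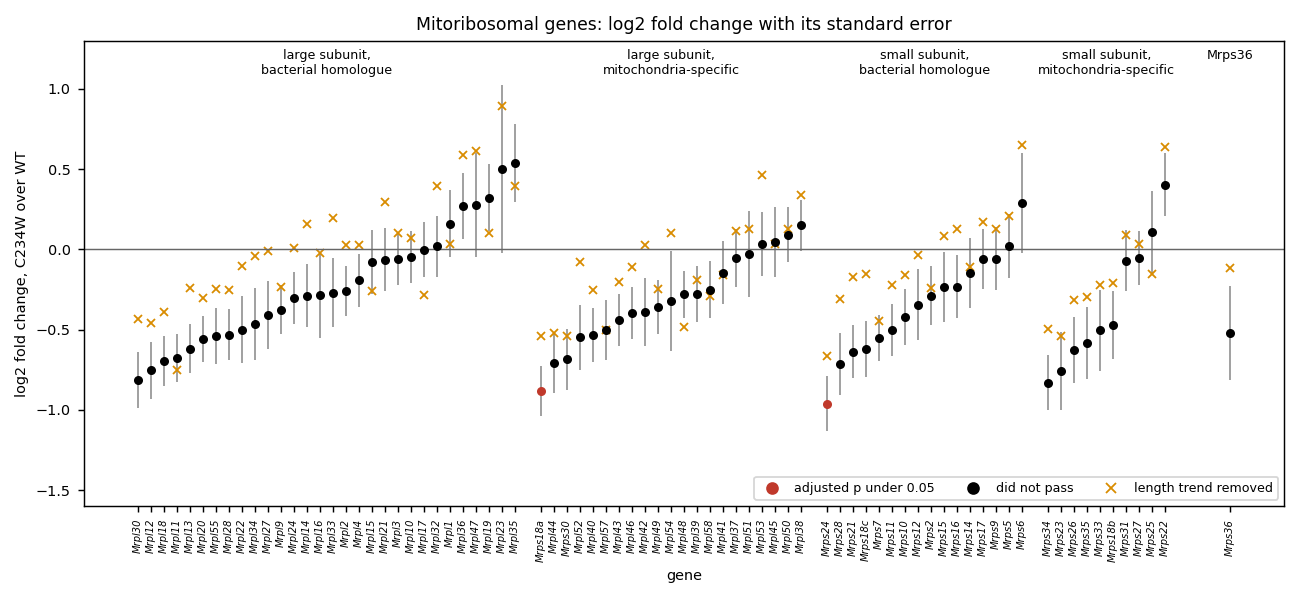
Log2 fold change of C234W over WT for each of the 78 genes (points) with its standard error (bars), in blocks by subunit and class; crosses give the value with the length trend of each library removed. The 2 genes with an adjusted p under 0.05, Mrps18a at -0.88 and Mrps24 at -0.96, are in red, and most crosses lie above their points.

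Set against genes of like length, the median of the mitoribosomal genes lay above the rest in some length classes and below it in others. Mitoribosomal transcripts are short: the counted gene models had a median length of 1079.5 bases, from 405 to 6707, against 3020 bases over all tested genes, and 53 of the 78 were under 1500 bases. Transcript length moved with genotype across all tested genes, at a slope of 0.189 in log2 fold change per doubling of length. Among gene models under 750 bases, the median log2 fold change was -0.43 for 14 members and -0.53 for 508 other genes. From 750 to under 1000 bases the medians were -0.32 for 16 members and -0.43 for 473 other genes, and from 1000 to under 1500 bases they were -0.44 for 23 members and -0.32 for 1364 other genes. Members thus lay above other genes of their length in the 2 shortest classes and below them in the next. From 1500 to under 2000 bases both medians were -0.17, over 10 members and 1660 other genes, and at 2000 bases or more they were -0.08 for 15 members and 0.13 for 10602 other genes. That last class has no upper limit. Its median length was 2875 bases for members and 3743.5 bases for other genes, so it matches length only loosely. In all, 42 of 78 members lay below the median of the other genes of their length class.

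The share of genes called lower followed the same classes. Of other genes, 10.6% were called lower under 750 bases, 6.13% from 750 to under 1000 bases, 3.15% from 1000 to under 1500 bases, 1.08% from 1500 to under 2000 bases and 0.396% at 2000 bases or more. Of members, 0 of 14, 1 of 16 (Mrps18a), 1 of 23 (Mrps24), 0 of 10 and 0 of 15 were called lower in the same order. At an unadjusted p under 0.05, from the shortest class to the longest, 35.7, 43.8, 52.2, 30 and 13.3% of members were lower, against 43.1, 37.8, 30.4, 18.4 and 7.84% of other genes. The share was higher among members in 4 of the 5 classes, the exception being genes under 750 bases. Groups did not overlap, with C234W lower, in 57.1, 50, 65.2, 40 and 20% of members, against 47.2, 44, 35.3, 24.2 and 9.87% of other genes in the same order, a higher share among members in all 5 classes. From the shortest class to the longest, the median SE was 0.21, 0.194, 0.176, 0.168 and 0.195 for members. It was 0.292, 0.255, 0.249, 0.242 and 0.23 for other genes. Both kinds of share depend on this spread as well as on the size of the change. These differences in share were not tested. Over the members alone, Spearman's rho between log2 fold change and length was 0.321 (n = 78 genes, which share their libraries).

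With a smooth trend of expression on length removed from each library, the slope per doubling was 0.00321, the median log2 fold change of the members was -0.11, and that of all genes was -0.048. The value was then negative for 46 of 78 members (59%), against 54.1% of all genes. No gene passed, member or not, with a smallest adjusted p of 0.0968, while 13 members were lower and 3 higher at an unadjusted p under 0.05 (against 13.5% and 7.02% of all genes). Mrps18a and Mrps24 had log2 fold changes of -0.54 and -0.67 with the trend removed (adjusted p = 0.119 and 0.11). Mrpl11, with a gene model of 2875 bases, had the smallest adjusted p of the members under this step, 0.0968, at a log2 fold change of -0.75. Mrps22, Mrpl36 and Mrpl53, the last 2 named after their values were seen, were the 3 higher ones, at 0.64, 0.59 and 0.46 (adjusted p = 0.137, 0.179 and 0.211). Mrpl53 has 695 exonic bases in common with Gm42688 on the same strand, which limits its value.

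**Figure D3:**
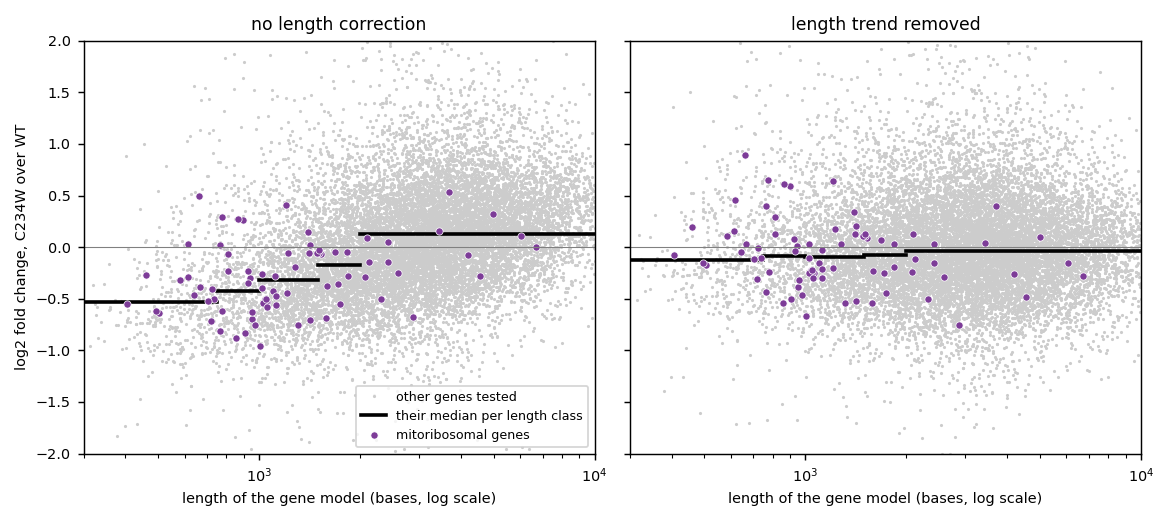
Log2 fold change of C234W over WT against the length of the counted gene model (log scale), for 78 mitoribosomal genes (purple) and the other tested genes (grey), with the median of the other genes in 5 length classes (black); left without and right with the length trend of each library removed. On the left the black line climbs from -0.53 under 750 bases to 0.13 at 2000 bases or more and the purple points lie on both sides of it, while on the right it is nearly level. Genes beyond the axes are not drawn.

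The summed level of the members separated the genotypes. Summed over the 78 genes, FS3A, FS3B and FS5A held 1752.3, 1676.7 and 1641.5 CPM and WT1A, WT2A and WT2B held 2212, 2163.7 and 2114.8 CPM, without overlap. As a share of the raw counts in genes, members made up 0.1863, 0.1832 and 0.1704% in C234W and 0.192, 0.2149 and 0.2027% in WT, so the separation is narrower without TMM scaling. WT1A was above the mean of the gene in 67 of 78 members and was the highest library in 28, whereas FS5A was the lowest library in 28. The members' median deviation from the gene mean, on the log2 scale, was -0.108, -0.168 and -0.227 in the 3 C234W libraries, in the order above, and 0.198, 0.15 and 0.06 in the WT libraries. With the length trend removed these values were -0.0847, 0.0279 and -0.0865 in C234W and 0.136, 0.0466 and -0.0422 in WT, and the groups then overlapped.

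**Figure D4:**
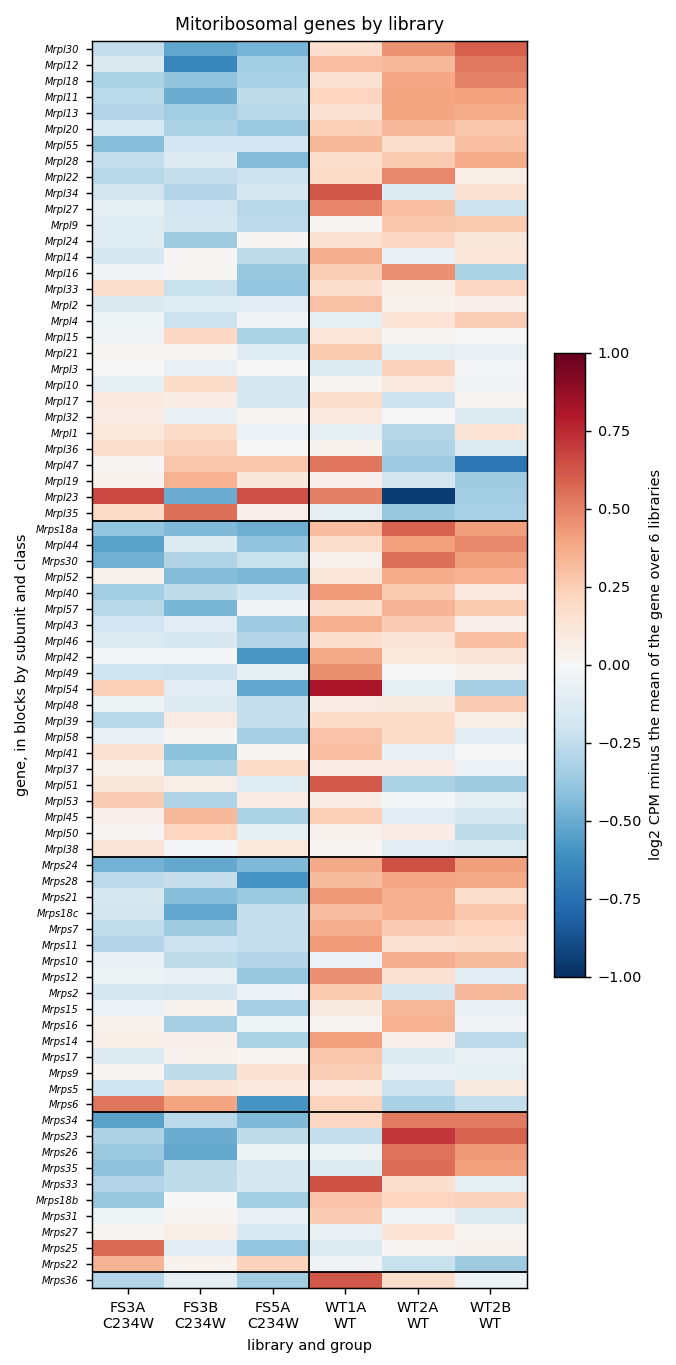
Log2 CPM of each gene minus its mean over the 6 libraries, for 78 mitoribosomal genes in blocks by subunit and class, with C234W libraries left of WT libraries; the color scale runs from -1 to 1. The first rows of the 3 upper blocks are blue in all 3 C234W libraries and red in all 3 WT libraries, and single rows such as Mrpl54, highest in WT1A at 65.0 CPM, break the pattern.

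Although the proteins meet in 1 particle, their transcripts differed widely in level per length. The mean level over the 6 libraries spanned 42.8-fold, and 33.2-fold without Mrpl23. By that mean the highest were Mrpl54, at 59.0 ± 15.2 CPM per kb of gene model in C234W and 73.7 ± 33.1 CPM per kb in WT, Mrps21, at 44.9 ± 4.41 CPM per kb in C234W and 69.8 ± 6.27 CPM per kb in WT, and Mrpl49, at 47.5 ± 2.12 CPM per kb in C234W and 60.8 ± 11.3 CPM per kb in WT (SD, n = 3 each). In WT the SDs of these 3 genes overlap, and Mrpl30 and Mrpl12, at 67.5 and 62.2 CPM per kb, were above Mrpl49. The lowest were Mrpl23, at 1.82 ± 0.704 CPM per kb in C234W and 1.28 ± 0.655 CPM per kb in WT, Mrpl35, at 2.37 ± 0.436 CPM per kb in C234W and 1.63 ± 0.179 CPM per kb in WT, and Mrpl19, at 2.93 ± 0.336 CPM per kb in C234W and 2.34 ± 0.337 CPM per kb in WT. Levels per length depend on which isoform was counted, and Mrpl35 and Mrpl19 have gene models of 3689 and 4993 bases, long for this group. The order of levels was much the same in both genotypes (Spearman's rho 0.953 over 78 genes, which share libraries and gene lengths).

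By class, the median level was 18.04 CPM per kb in C234W and 22.1 CPM per kb in WT for large-subunit homologues of bacterial proteins, and 17.9 CPM per kb in C234W and 19.99 CPM per kb in WT for the other large-subunit genes. It was 15.1 CPM per kb in C234W and 20.4 CPM per kb in WT for small-subunit homologues, and 11.8 CPM per kb in C234W and 10.8 CPM per kb in WT for the other small-subunit genes. The ranges of the 4 classes overlapped in both genotypes.

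**Figure D5:**
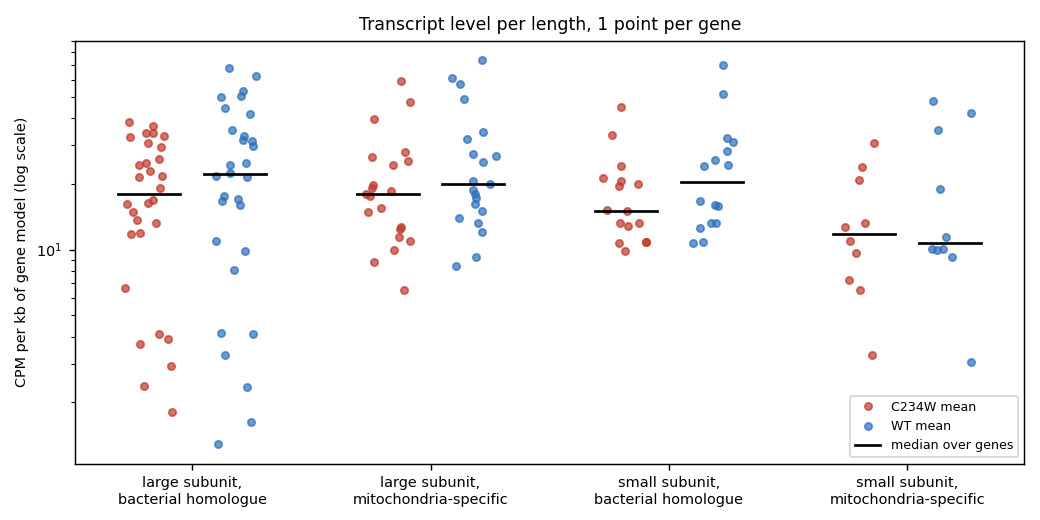
Mean TMM-scaled CPM per kb of gene model (log scale), 1 point per gene and genotype, C234W left of WT in each of 4 classes, with the median over genes as a bar. Points run from 1.28 for Mrpl23 in WT to 73.7 for Mrpl54 in WT, and the 4 classes overlap.

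Members were spread over 17 chromosomes, with 11 on chromosome 11 and 0 on chromosome X. By the GENCODE annotation 8 members share exonic bases with another gene on the same strand and 28 with a gene on the opposite strand. Mrps11 and Mrpl46, named for their position, are such a pair, with 173 exonic bases in common on opposite strands, and had log2 fold changes of -0.50 and -0.40 (adjusted p = 0.11 and 0.173). The libraries were strand-specific per the labels' protocols, so opposite genes can be told apart as far as that protocol holds.

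Further proteins of the mitochondrial ribosome carry other names. Of the 5 measured, Aurkaip1, Ptcd3, Chchd1, Gadd45gip1 and Dap3, 0 passed by edgeR. At an unadjusted p under 0.05, 1 was lower (20%, against 13.5% of all genes) and 1 higher (against 11.9%). DESeq2 called 1 lower (20%, against 7.24% of all genes). Aurkaip1, a small-subunit protein, was measured at 43.2, 43.3 and 44.4 CPM in C234W and at 61.5, 67.4 and 65.5 CPM in WT. The groups did not overlap, and its log2 fold change, -0.57 with an SE of 0.138, did not pass (adjusted p = 0.0631).

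The rest of the mitochondrial translation machinery, from lists of named genes, was measured with no common direction. Among 23 genes of mitochondrial aminoacyl-tRNA synthesis 1 fell (4.35%, against 1.28% of all genes), 0 rose and 22 did not pass. Their median log2 fold change was 0.089. The 1 was Fars2, the mitochondrial phenylalanyl-tRNA synthetase, at 13.03, 12.8 and 14.2 CPM in C234W and 23.5, 36.5 and 37.4 CPM in WT (log2 fold change -1.28, SE 0.215, adjusted p = 0.0484, and 0.0968 with the length trend removed). It passed in 6 of 17 alternatives, with adjusted p from 4.71e-05 to 0.379, and did not pass without WT2A, WT2B, FS3A, FS3B or FS5A (0.0868 to 0.237). Among 13 translation factors 0 passed by edgeR. At an unadjusted p under 0.05, 1 was lower (7.69%, against 13.5% of all genes) and 3 were higher (against 11.9%). DESeq2 called 0 lower (against 7.24% of all genes) and 2 higher (against 4.71%). The smallest p was that of Gfm2, which recycles mitochondrial ribosomes, at 26.6 ± 3.48 CPM in C234W and 16.3 ± 3.08 CPM in WT (SD, n = 3 each; adjusted p = 0.0881). Among 25 genes of ribosome assembly and ribosomal RNA modification 0 passed by edgeR. At an unadjusted p under 0.05, 5 were lower (20%, against 13.5% of all genes) and 1 was higher (against 11.9%). DESeq2 called 3 lower (12%, against 7.24% of all genes). Ngrn, needed for the large-subunit ribosomal RNA, had the smallest p, at 57.2 ± 1.09 CPM in C234W and 79.2 ± 3.04 CPM in WT (SD, n = 3 each; adjusted p = 0.0852).

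Among 13 genes of mitochondrial transcription and RNA stability 0 passed by edgeR. DESeq2 called 3 lower (23.1%, against 7.24% of all genes) and 2 higher (against 4.71%). At an unadjusted p under 0.05 likewise 3 were lower (against 13.5% of all genes) and 2 higher (against 11.9%). Slirp, which stabilises mitochondrial messenger RNA together with Lrpprc, had the smallest p, at 20.6, 16.5 and 18.8 CPM in C234W and 32.1, 29.0 and 31.0 CPM in WT (log2 fold change -0.72, SE 0.166, adjusted p = 0.0577, and -0.25 with the length trend removed). Among 11 regulators of nuclear genes for mitochondria, 0 passed by edgeR. At an unadjusted p under 0.05, 1 was lower (9.09%, against 13.5% of all genes) and 1 higher (against 11.9%). DESeq2 called 0 lower (against 7.24% of all genes) and 1 higher (against 4.71%). Pprc1, a coactivator related to Ppargc1a, had the smallest p, at 30.1, 18.8 and 17.4 CPM in C234W and 16.6, 6.24 and 7.21 CPM in WT (log2 fold change 1.14, adjusted p = 0.123). The messenger RNAs encoded by mitochondrial DNA were not analysed here.

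Beside the cytosolic ribosomal proteins and the Nduf subunits of complex I, also short transcripts, a smaller share of the mitoribosomal genes was called lower. Members had 2 of 78 called lower (2.56%) at a median log2 fold change of -0.30. Cytosolic ribosomal protein genes had 29 of 95 (30.5%) at -0.81 and Nduf genes 13 of 38 (34.2%) at -0.68. Over all tested genes 1.28% were called lower. Of genes other than members it was 10.6% under 750 bases and 3.15% from 1000 to under 1500 bases. Median levels were 17.7 CPM per kb for members, 46.07 for cytosolic ribosomal protein genes and 84.71 for Nduf genes, which can also affect the calls. With the length trend removed, the medians were -0.11 for members, -0.49 for cytosolic ribosomal protein genes and -0.31 for Nduf genes, and the median lengths of the gene models were 1079.5, 732 and 749 bases in the same order. The difference between these groups of genes was not tested.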

How the data were processed

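Whole-retina polyadenylated RNA of 3 C234W and 3 wild-type libraries was analysed. Per the submitters' processing notes and the series' design text, the authors mapped reads to mm10 with STAR (2.7.8a) and counted uniquely mapped exonic tags on the minus strand with HOMER, keeping a single isoform of each gene. Per the file headers the deposited numbers are estimated counts without normalization, in steps of 0.5, and were rounded to whole numbers (28.3 to 32.1% of values per library were not whole). Unique counting lowers genes with near-identical copies, and the isoform kept sets the length. Headers give 19426580 to 26672412 tags per library, of which 65.8 to 74.4% were counted in genes. No sample column was left out (0), and no pair of libraries was a duplicate (the closest, WT2A with WT2B, had a chi-square of 9.97 per degree of freedom). WT1A stood apart from both, at 74.2 from WT2A and 65.9 from WT2B. From C234W libraries it stood at 62.4 (FS5A), 88.5 (FS3A) and 112 (FS3B). Its Pearson correlation of log2 CPM over all tested genes was 0.9609 with WT2A, 0.9556 with WT2B and 0.9718 with FS5A. The WT libraries are therefore not equally alike.

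Genes were kept by filterByExpr, scaled by TMM and tested with the robust quasi-likelihood test of edgeR (4.0.16, R 4.3.3), adjusted by Benjamini-Hochberg over 14685 genes, at a threshold of 0.05. CPM are TMM-scaled. Members and lists were chosen with earlier results of these data known. Named are the 12 members with the smallest p, the 4 with the most positive fold change at 1 CPM or more, the 3 highest and 3 lowest per kb, members with a particular role, and in each further list the passing genes or the gene of smallest p. Alternatives were other scalings, filters, DESeq2 (1.42.0), limma-voom (3.58.1), unrounded counts, summed libraries, the members' length range, each library left out, and a loess trend on length (span 0.3) removed as an offset. The tests were tried on simulated data, drawn with the dispersion that edgeR fitted and without a trend on length. There edgeR made 6 false calls of 141, DESeq2 24 of 162 and limma-voom 4 of 134. In that order they recovered 43, 49 and 39% of 2-fold changes.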

Additional observations from a re-analysis of the deposited data

How the results depend on the processing

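By edgeR with TMM scaling, 215 genes were called, and 2 members lower. The counts were 0 genes and 0 members with RLE, upper-quartile or total-count scaling, with the length trend removed, with only genes within the members' length range, and with libraries summed where their names have the same number. At an unadjusted p under 0.05 these settings gave 3753, 3805, 4349, 3014, 3273 and 1793 genes. Calls were 353 genes and 4 members with no filter on low counts, and 1754 genes and 17 members with DESeq2. Leaving out 1 library gave 0 to 2775 genes and 0 to 20 members called lower, the highest of both without WT1A, and 0 members without each of the others. No setting called a member higher. With TMM and filterByExpr on all 6 libraries, the smallest adjusted p of any gene by edgeR was 0.0484. The median log2 fold change of members, -0.295, was -0.107 with total counts (0.205 over all genes, 0.0234 with TMM), -0.11 with the length trend removed, -0.368 with summed libraries, and -0.344 to -0.25 with 1 library left out; it was negative in every setting run. Mrpl54 changed sign with the length trend removed (0.104) and without WT1A, with -0.531 to 0.112 over the libraries left out. No other gene chosen by the naming rule changed sign. Chchd1, Lrpprc and Ppargc1a, run only with and without the length trend, had 0.087, -0.099 and -0.13 with it removed, against -0.36, 0.093 and 0.14. At an unadjusted p under 0.05, 29 members were lower and 0 higher, against 15 and 3 with total counts, 13 and 3 with the length trend removed, 16 and 0 with summed libraries, and 20 to 28 lower with 1 library left out. Negative values numbered 63, against 50 with total counts and 46 with the length trend removed. No paired analysis was possible because the columns carry no replicate number of the labels. The causes of these changes were not tested.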
